A study of Homo sapiens with 12 samples.

Results

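The genes described here are 10 that epithelial cells use to hold on to each other or, in one case, to splice the epithelial forms of their transcripts: EPCAM, CLDN1, CLDN4, CLDN7, OCLN, TJP1, JUP, DSP, PKP3 and ESRP1. They were chosen by name and function, with earlier results of these data known. Each was found once among the 28512 genes of the deposited tables. All 10 were also among the 14232 genes that were tested, those whose value averaged 10 or more. Polyadenylated RNA had been sequenced from SUM159, MDAMB231 and HCC1806, established lines of triple-negative breast cancer, a breast cancer without estrogen receptor, progesterone receptor or raised HER2. Each line was treated for 72 h with 1 of 4 treatments (the solvent DMSO, JQ1, GSK2801, or JQ1 and GSK2801 combined), which gave 12 libraries with 1 library for each line and treatment. JQ1 displaces BET family proteins from acetylated chromatin, and GSK2801 occupies the bromodomains of BAZ2A and BAZ2B, subunits of chromatin remodelling complexes. The JQ1 dose was 300 nM for SUM159, 100 nM for MDAMB231 and 500 nM for HCC1806, while GSK2801 was always used at 10 µM. SUM159 and MDAMB231 grew in DMEM/F12 to which serum, hydrocortisone and insulin were added, and HCC1806 grew in RPMI 1640 with serum, so that for HCC1806 the line, the medium and the JQ1 dose cannot be told apart. The series title names the response to inhibition of BAZ2A/B and of BET bromodomains, alone and combined, as the question.

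Epithelial cells are sealed to their neighbours by tight junctions near the cell apex and are fastened by adherens junctions and desmosomes below. Claudins and occludin span the membrane at the tight junction, and the scaffold TJP1 (ZO-1) ties them to actin. Desmosomal cadherins are linked by plakoglobin (JUP) and plakophilins to desmoplakin (DSP), which binds keratin filaments. Carcinoma cells that take on mesenchymal features lower many of these genes, and repressors such as ZEB1, ZEB2 and SNAI1 bind E-box motifs in the promoters of several of them.

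The E-boxes near the members' start sites are printed first, as letters that repressors such as ZEB1 bind. Their part in the differences between lines was not tested. RefSeq promoter windows of 300 bases (250 before a start and 50 after it, build GRCh38.p14) were used for 7 of the 10 members, in 13 windows. None was used for EPCAM, PKP3 or ESRP1, and windows on the chromosome of ESRP1 were left out by rule. The windows were searched on both strands for the E-box CAGGTG, which reads CACCTG on the other strand. It was present in 6 of the 13 windows, and in 20.6% of all 35116 windows of this length. CLDN7 held 5 matches in 1 window, a number reached by 33 of all windows (0.094%). JUP, OCLN and DSP each had a window with 2 matches, and 3.49% of all windows held at least that many. OCLN and TJP1 each had a window with 1 match, and the windows of CLDN1 and CLDN4 had 0. Each line below is a stretch of 30 bases on the gene's strand, read 5′ to 3′, with the E-boxes in capitals.
CLDN7, chr17:7262635-7262664, minus strand: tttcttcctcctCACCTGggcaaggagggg
CLDN7, chr17:7262596-7262625, minus strand: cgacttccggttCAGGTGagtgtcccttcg
CLDN7, chr17:7262475-7262504, minus strand: tatactCAGGTGcgcccCACCTGtccgccc
CLDN7, chr17:7262456-7262485, minus strand: cctgtccgcccgCACCTGctggctcacctc
JUP, chr17:41786007-41786036, minus strand: tggcccCACCTGccgagCAGGTGagcgcac
OCLN, chr5:69492645-69492674, plus strand: tctaggacgcagCAGGTGggactcgcggcg
OCLN, chr5:69492810-69492839, plus strand: cggtcggtgcggcgtCAGGTGcgcccgcca
DSP, chr6:7541481-7541510, plus strand: gggcggcgggcgCAGGTGgggaggggcggc
DSP, chr6:7541574-7541603, plus strand: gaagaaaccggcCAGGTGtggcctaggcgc

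The pair of E-boxes in the third CLDN7 stretch lay 5 bases apart and began 20 bases before the transcription start in that window. The JUP pair was also 5 bases apart and began 54 bases before its transcription start, with CACCTG first and CAGGTG second. The 250 bases before that JUP start are shown whole, since JUP was the member that rose most with JQ1.
JUP, chr17:41785977-41786226, minus strand: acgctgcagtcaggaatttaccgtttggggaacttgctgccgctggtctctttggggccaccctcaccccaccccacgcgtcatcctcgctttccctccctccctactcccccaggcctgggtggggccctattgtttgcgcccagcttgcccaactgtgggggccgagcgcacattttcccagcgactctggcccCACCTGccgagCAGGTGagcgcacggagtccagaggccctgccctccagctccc

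In GENCODE v29, 1 of the 12 JUP transcripts began within 100 bases of this start, and 1 of the 8 CLDN7 transcripts did so for the CLDN7 window with 5 matches. More transcripts began at the other window of each gene, which held 0 E-boxes. These were 5 of the 12 for JUP and 3 of the 8 for CLDN7. The core letters of a grainyhead site, AACNNGTT, were in none of the 13 windows and in 3.52% of all windows. The GC box GGGCGG was in 9 of the 13 and in 45% of all windows. These matches describe letters only, since binding was not measured here.

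Of these genes all but TJP1 were higher in HCC1806 than in both other lines, by amounts from 1.55-fold for OCLN against MDAMB231 to 3610-fold for EPCAM against SUM159. Over the 4 treatments 9 of the 10 were higher in HCC1806 than in SUM159 and 0 lower (limma, adjusted p under 0.05 over all tested genes). The same call was made for 70.0% of all tested genes, with 34.5% higher and 35.5% lower. Against MDAMB231, 9 were higher in HCC1806 and 1 was lower, where 70.3% of all genes were called (36.5% higher and 33.8% lower). The members' median difference was 5.14 on the log2 scale against SUM159 and 3.36 against MDAMB231, and the median over all tested genes was -0.01 and 0.04. ESRP1 averaged under 10 outside HCC1806, so it was among the tested genes through that line alone and its direction there follows from that. All differences are on log2(value + 1) of the deposited values, whose upper quartile above 0 is the same in each library. The p-values of these line comparisons rest on how far treatments acted unequally in the lines, and do not measure the spread between cultures of 1 line. In bulk RNA of this kind, fewer cells with a gene's transcript and less transcript per cell cannot be told apart.

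**Figure D1:**
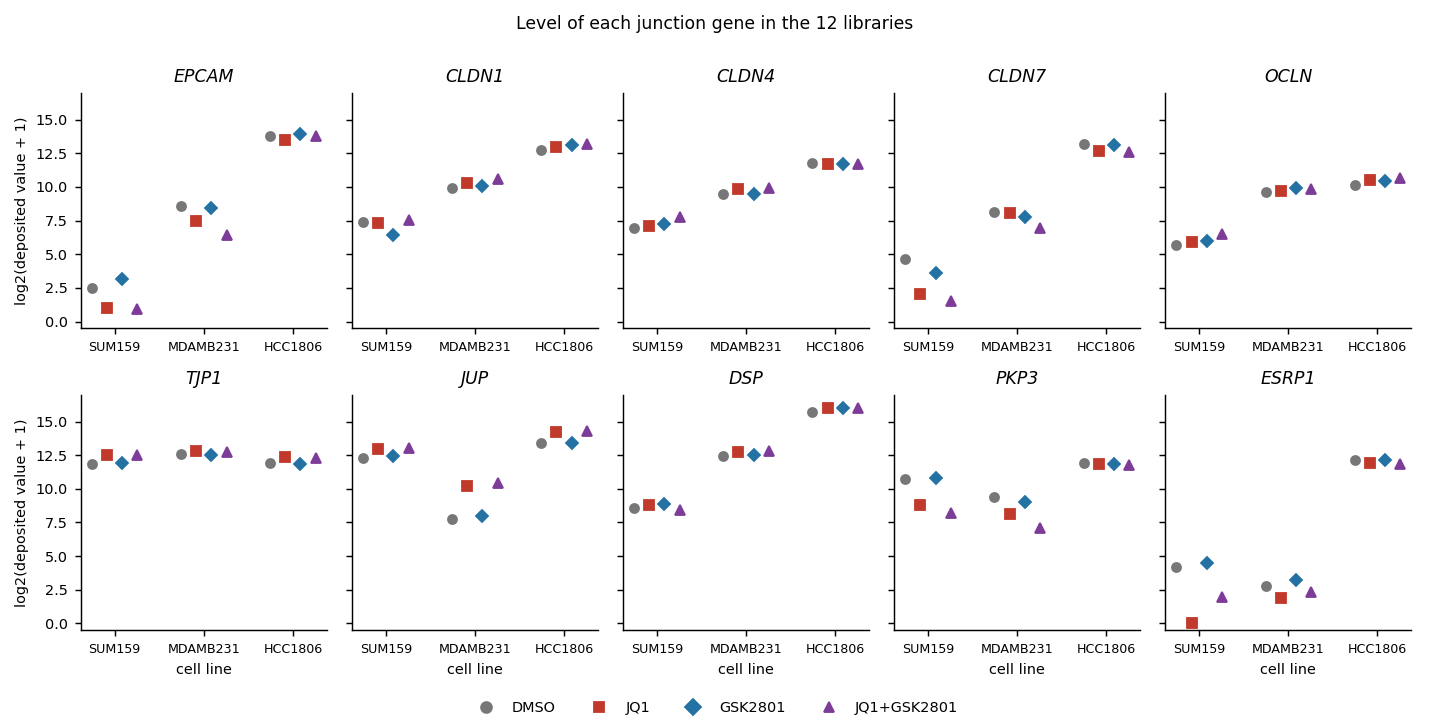
Level of each of the 10 genes, as log2(deposited value + 1), in each of the 12 libraries, by cell line (x axis) and treatment (marker). HCC1806 is at the top in 9 panels, TJP1 spans the narrowest range (3683 to 7217 in value), and EPCAM in SUM159 lies between 0.9449 and 7.873 in value.

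EPCAM, a membrane glycoprotein that associates with CLDN7 and marks epithelial cells, differed most between the lines. Its values in SUM159 were 4.688 with DMSO, 1.062 with JQ1, 7.873 with GSK2801 and 0.9449 with both. These correspond to 1 to 9 estimated reads per library, so that the gene was barely detected in this line. In MDAMB231 the values were 374.5, 172.6, 347.5 and 84.03 in the same order. In HCC1806 they were 14289, 11492, 15287 and 13765. The lowest HCC1806 library was thus above the highest library of either other line. The log2 difference between HCC1806 and SUM159 was 11.82 ± 0.36 (SE, 4 libraries per line; adjusted p = 2.5e-08), and its size depends on the 1 added before the logarithm. Between SUM159 and MDAMB231 the difference was -5.80 ± 0.36 (adjusted p = 1.3e-06).

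The 3 claudins followed the same order, lowest in SUM159 and highest in HCC1806. CLDN1, which is required for the epidermal water barrier, had DMSO values of 171.1 in SUM159, 972.9 in MDAMB231 and 7038 in HCC1806. CLDN4, a claudin of simple and glandular epithelia, had 121.9, 722.7 and 3481. CLDN7, the claudin that binds EPCAM, had 23.44, 284.1 and 9329, which in SUM159 was 20 estimated reads. For all 3 genes the ranges of the lines over the 4 treatments did not overlap. HCC1806 exceeded SUM159 by 5.82 ± 0.20 for CLDN1, 4.45 ± 0.15 for CLDN4 and 9.95 ± 0.41 for CLDN7. The steps between SUM159 and MDAMB231 were -3.02 ± 0.20, -2.40 ± 0.15 and -4.80 ± 0.41, and each passed the test. CLDN4 was the steadiest member in HCC1806, where its 4 libraries lay between 3329 and 3481.

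OCLN and TJP1, the other tight junction members, differed from this pattern in part. OCLN, which encodes occludin, was 51.56 with DMSO in SUM159, 801 in MDAMB231 and 1107 in HCC1806. MDAMB231 and HCC1806 were close for this gene, with a difference of 0.63 ± 0.13 (adjusted p = 0.00216), and stood 13.6-fold and 21.0-fold above SUM159. TJP1 was 3683 with DMSO in SUM159, 6074 in MDAMB231 and 3802 in HCC1806. It was the one member not higher in HCC1806 in both comparisons. HCC1806 and SUM159 did not differ beyond the spread for TJP1 (-0.11, 95% interval -0.32 to 0.10), and MDAMB231 was the highest line, 1.48-fold above HCC1806.

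The desmosomal genes did not share 1 order of lines. For DSP the order was that of the claudins, with DMSO values of 378.5 in SUM159, 5564 in MDAMB231 and 53425 in HCC1806. JUP, whose product is found in desmosomes and adherens junctions, was 5053, 217.8 and 10561, so that MDAMB231 was lowest. PKP3, a plakophilin of simple and stratified epithelia, was 1678, 679 and 3871, again with MDAMB231 lowest. SUM159 exceeded MDAMB231 by 3.58 ± 0.33 for JUP (adjusted p = 1.8e-05) and by 1.22 ± 0.40 for PKP3 (adjusted p = 0.0261). These were the 2 members higher in SUM159, and 7 were lower, where 60.4% of all genes were called between these lines (32.0% higher and 28.5% lower). The PKP3 call was lost without the SUM159 DMSO or GSK2801 library, or any of the MDAMB231 libraries except DMSO (adjusted p 0.0532 to 0.0933).

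ESRP1, which encodes an RNA-binding protein that maintains epithelial splicing, was abundant in HCC1806 and barely detected in the other lines. Its HCC1806 values were 4442 with DMSO, 3951 with JQ1, 4421 with GSK2801 and 3675 with both. In MDAMB231 they were 6.029, 2.739, 8.119 and 4.002, or 3 to 10 estimated reads. In SUM159 they were 17.58, 0, 21 and 2.835. The listed 0 allows a value of up to 3.19, the worth of 3 reads in that library, so it cannot be told from the value of 2.835 with both inhibitors. SUM159 and MDAMB231 did not differ for ESRP1 beyond the spread (0.10, 95% interval -1.33 to 1.53).

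Divided by exon length, the members also ranked differently within each line. With DMSO, HCC1806 had the highest values per kilobase for EPCAM (5673), DSP (5293) and CLDN7 (3744), and the lowest for OCLN (164) and TJP1 (338). SUM159 had the highest for JUP (1023), PKP3 (443) and TJP1 (327), and the lowest for EPCAM (1.86). MDAMB231 had the highest for DSP (551) and TJP1 (539), and the lowest for ESRP1 (1.24). With 1 DMSO library per line, neighbours in these orders have no measured spread. The lengths are all annotated exons of the gene together, so the transcript in use may be shorter.

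Other junction genes and epithelial regulators were also mostly higher in HCC1806 (34.5% of all tested genes were higher than in SUM159 and 36.5% higher than in MDAMB231). Of 14 other desmosome genes 10 were tested, and 10 were higher than in SUM159 and 0 lower, with a median difference of 6.87. Against MDAMB231, 7 were higher and 1 lower (median 3.17). DSC3, DSG3 and PKP1 averaged under 10 in the other lines and were tested through HCC1806 alone, so that their direction was fixed by the filter. Of 21 epithelial regulators and genes expressed with EPCAM 20 were tested, 6 of them through HCC1806 alone. All 20 were higher than in SUM159 (median 7.75), and 19 were higher than in MDAMB231 and 0 lower (median 4.96). The direction of those 6 followed from the filter, and they enter these counts and medians. The same holds for the genes tested through HCC1806 alone in the lists that follow. Of 36 other tight junction genes 25 were tested, 5 of them through HCC1806 alone. Against SUM159, 17 were higher and 5 lower (CLDN15, JAM3, MAGI1, MAGI3 and MPDZ), with a median of 2.29, and against MDAMB231, 16 were higher and 5 lower (median 2.03). Of 11 adherens junction and nectin genes 11 were tested, 1 of them (NECTIN4) through HCC1806 alone. Against SUM159, 8 were higher and 1, CTNNA1, lower (median 1.55), and against MDAMB231, 7 were higher and 2 lower (median 0.99). These lower genes and CDH1, which encodes E-cadherin, are named after their values were seen. CDH1 was 14154 to 27120.5 in HCC1806 and 1.06 to 33.24 in the other lines.

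**Figure D2:**
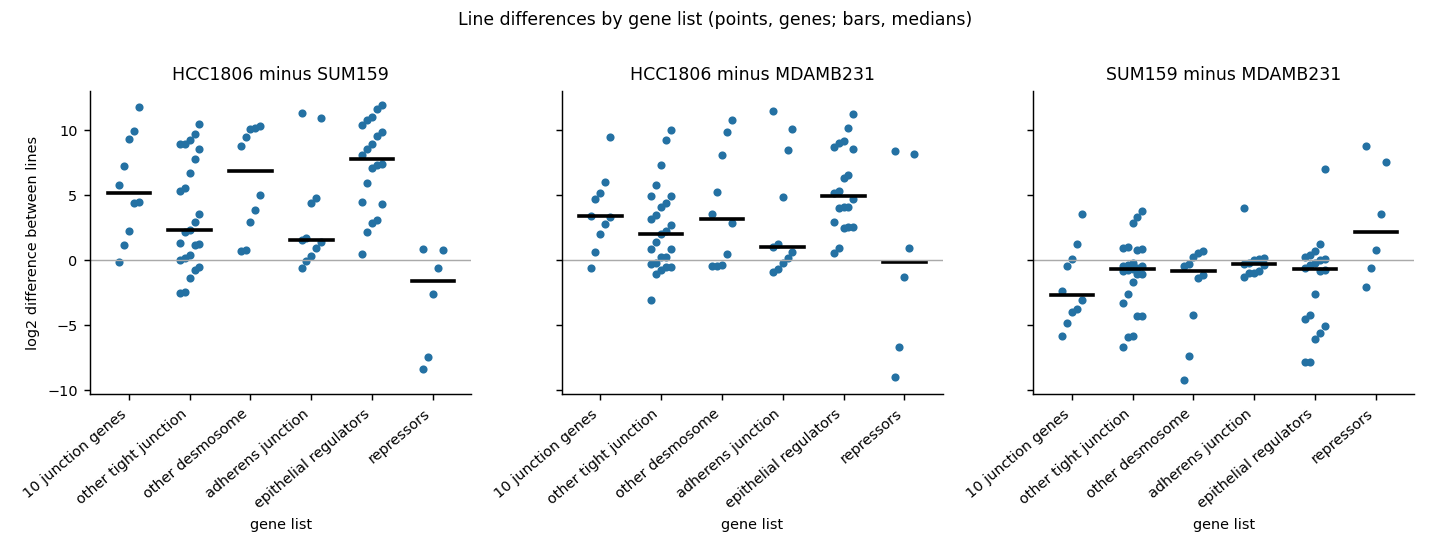
Difference between lines in log2(value + 1), averaged over the 4 treatments, for each tested gene (points) of 6 gene lists, with each list's median as a bar. The 10 junction genes have medians of 5.14 and 3.36 in favour of HCC1806, and -2.71 for SUM159 against MDAMB231.

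Among 6 repressors of epithelial genes, the ZEB genes were lowest in HCC1806. The whole list was chosen for its function but described after its values were seen. ZEB1 was 1540.3 to 2270.0 in SUM159, 2537.0 to 3085.3 in MDAMB231 and 1.07 to 9.60 in HCC1806. ZEB2 was 662.8 to 1524.2, 507.8 to 688.6 and 1.07 to 11.75. Both were thus nearly absent where 9 of the members were highest, and their part in the members' levels was not tested. Between the other lines ZEB1 had higher values in MDAMB231. Over the whole list 3 of the 6 were higher in SUM159 than in MDAMB231 and 1 was lower, where 32.0% and 28.5% of all tested genes were. TWIST1 and TWIST2 showed another pattern, present in SUM159 and HCC1806 and at or near 0 in MDAMB231. Against SUM159, HCC1806 was lower for 3 of the 6 (ZEB1, ZEB2 and SNAI1) and higher for 2 (SNAI2 and TWIST1). Against MDAMB231 it was lower for 3 and higher for 3. The shares over all tested genes were 35.5% lower and 34.5% higher against SUM159, and 33.8% and 36.5% against MDAMB231.

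The lines were also checked against markers that define their type and other cell types. ESR1 lay between 0 and 137.81 and PGR between 0 and 12.06, while ERBB2 was 1749.2 to 6456.3. SUM159 lacked EPCAM almost wholly, and CDH1 was low in both SUM159 (1.06 to 33.24) and MDAMB231 (6.39 to 30.01). Against MDAMB231, 2 members (JUP and PKP3) were higher in SUM159 and 7 lower. Of 20 epithelial regulators 2 were higher and 8 lower, where 32.0% and 28.5% of all tested genes were. TP63, a regulator, was 1830.51 with DMSO in SUM159 and 3.77 in MDAMB231. SUM159 also held the fibroblast markers PDGFRA at 6604.4 and DCN at 182.8 with DMSO. LUM, another fibroblast marker, was higher in MDAMB231, at 27.13 with DMSO against 9.38 in SUM159. The 6 fibroblast and adipocyte markers summed to 636.2 to 7017 in SUM159, 28.3 to 44.46 in MDAMB231 and 21.36 to 51.56 in HCC1806, and ADIPOQ was at 0 in 11 of the libraries. The 10 blood and endothelial markers summed to 353.6 to 1549 in SUM159, 284.8 to 412.7 in MDAMB231 and 12.79 to 63.02 in HCC1806. HBB was at 0 in all 12 libraries.

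With JQ1, 2 of the 10 genes rose over the 3 lines and 0 fell. In the same comparison 22.6% of all tested genes were called, with 9.52% higher and 13.1% lower, so the members' count is close to the background. TJP1 rose 1.40-fold and JUP 2.49-fold. Below, differences are means over the 3 lines with the SE of a fit that holds the line as a block, and DMSO of the same line is the reference. Since the JQ1 libraries of a line share its own JQ1 response, p-values of comparisons with against without JQ1 may be too small.

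TJP1, the scaffold, was 3683 with DMSO and 5981 with JQ1 in SUM159. In MDAMB231 it was 6074 and 7217, and in HCC1806 3802 and 5398. All 3 lines moved upward, by 0.70, 0.25 and 0.51 on the log2 scale, and the mean difference was 0.48 ± 0.11 (SE, n = 3 lines; limma adjusted p = 0.0132). JUP, the plakoglobin gene, was 5053 and 7883 in SUM159, 217.8 and 1174 in MDAMB231, and 10561 and 19370 in HCC1806. The rise was steepest in MDAMB231, the line with least JUP, and with JQ1 that line still lay below both others. The mean difference was 1.31 ± 0.38 (adjusted p = 0.0383). The TJP1 call was lost without the SUM159 DMSO, SUM159 JQ1 or HCC1806 JQ1 library (adjusted p 0.0542 to 0.0613). The JUP call was lost without any single DMSO or JQ1 library or the HCC1806 GSK2801 library (0.0504 to 0.153), and without the variance trend (0.0612).

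The 4 members with negative means were lower with JQ1 in each of the 3 lines and missed the threshold on average. PKP3 was 1678 with DMSO and 434.3 with JQ1 in SUM159, 679 and 274.8 in MDAMB231, and 3871 and 3636 in HCC1806. Its log2 ratios were thus -1.95, -1.30 and -0.09, and the mean was -1.11 ± 0.47 (adjusted p = 0.116). EPCAM had ratios of -1.46, -1.11 and -0.31 (mean -0.96 ± 0.41, adjusted p = 0.123). CLDN7 had -2.55, -0.06 and -0.54 (mean -1.05 ± 0.47, adjusted p = 0.138), and ESRP1 -4.22, -0.91 and -0.17 (mean -1.77 ± 0.73, adjusted p = 0.113). In each of these genes the SUM159 ratio was the most negative, and for EPCAM, CLDN7 and ESRP1 it rests on 1, 3 and 0 estimated reads with JQ1. Markers of other cell types also differed between these SUM159 libraries. The 6 fibroblast and adipocyte markers summed to 7017 with DMSO, 636.2 with JQ1, 6386 with GSK2801 and 1733 with both. Most of the fall was in PDGFRA (6604.4 with DMSO, 412.2 with JQ1 and 164.8 with both), while FABP4 was higher (177.0, 202.8 and 1509.9). The 10 blood and endothelial markers summed to 1549, 353.6, 1414 and 406.3 in the order of the first sum. The part of these in the result was not tested.

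The other 4 members had smaller means. DSP was 378.5 with DMSO and 454.5 with JQ1 in SUM159, 5564 and 7002 in MDAMB231, and 53425 and 64979 in HCC1806, with a mean of 0.29 ± 0.13 that did not pass (adjusted p = 0.128). CLDN1 had a mean of 0.15 ± 0.23, CLDN4 of 0.15 ± 0.17 and OCLN of 0.23 ± 0.15. Their 95% intervals reached 0.67, 0.54 and 0.58, so increases of that size lie within the error.

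**Figure D3:**
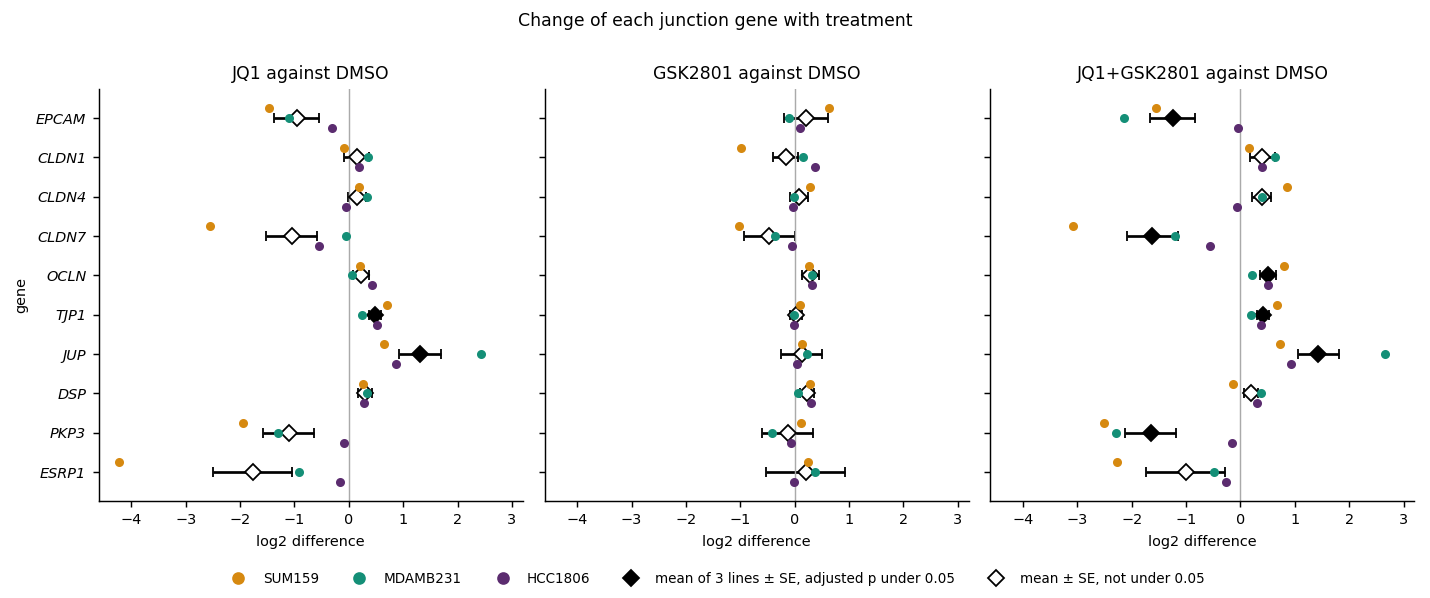
Log2 difference from DMSO for each of the 10 genes under JQ1, GSK2801 and both, with 1 point per line and the mean over 3 lines ± SE as a diamond, filled where the adjusted p is under 0.05. TJP1 and JUP are filled under JQ1, none under GSK2801 and 6 under both inhibitors.

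GSK2801 alone moved none of the 10 genes past the threshold. The count was 0 at an unadjusted p under 0.05 as well, and of all tested genes 0 (0%) were called and 161 had an unadjusted p under 0.05. The largest mean was that of CLDN7, -0.47 ± 0.47, where the DMSO and GSK2801 values were 23.44 and 11.01 in SUM159, 284.1 and 221.6 in MDAMB231, and 9329 and 9067 in HCC1806. The narrowest interval was that of TJP1, -0.22 to 0.26 on the log2 scale, and the widest that of ESRP1, -1.45 to 1.85. OCLN was higher in each line with GSK2801, by 0.26, 0.31 and 0.31, with a mean of 0.29 ± 0.15 (unadjusted p = 0.0887, adjusted p = 1.00). In SUM159 CLDN1 had its lowest value with GSK2801, 85.73 against 171.1 with DMSO, while the other lines were higher by 0.15 and 0.37.

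With both inhibitors 6 of the 10 genes passed, 3 higher and 3 lower. In this comparison 34.8% of all tested genes were called, with 15.0% higher and 19.8% lower. TJP1, JUP and OCLN rose, and EPCAM, CLDN7 and PKP3 fell. Since the DMSO libraries are the same as in the JQ1 comparison, the values of both are given side by side and are not independent.

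Of the genes that rose, OCLN had 51.56 with DMSO and 90.71 with both inhibitors in SUM159, 801 and 933 in MDAMB231, and 1107 and 1579 in HCC1806. All 3 lines were higher, and the mean difference was 0.51 ± 0.15 (adjusted p = 0.0304), against 0.23 ± 0.15 with JQ1. TJP1 reached 5920, 6983 and 4901, a mean difference of 0.42 ± 0.11 (adjusted p = 0.0157). JUP reached 8318, 1368 and 20192, a mean of 1.43 ± 0.38 (adjusted p = 0.0192). For these 2 genes the levels were close to those with JQ1 alone in every line.

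Of the genes that fell, PKP3 had 1678 with DMSO and 291 with both inhibitors in SUM159, 679 and 138.1 in MDAMB231, and 3871 and 3495 in HCC1806. The mean difference was -1.65 ± 0.47 (adjusted p = 0.0236), and the HCC1806 ratio was only -0.15. EPCAM was 374.5 with DMSO and 84.03 with both in MDAMB231, and 14289 and 13765 in HCC1806. In SUM159 it was at 4 and 1 estimated reads, and the mean difference was -1.25 ± 0.41 (adjusted p = 0.0435). CLDN7 was 23.44 and 1.89 (2 estimated reads) in SUM159, 284.1 and 122.7 in MDAMB231, and 9329 and 6313 in HCC1806. It was lower in all 3 lines, with a mean of -1.62 ± 0.47 (adjusted p = 0.0266). ESRP1 was lower in all 3 lines too, with ratios of -2.28, -0.49 and -0.27, and did not pass (mean -1.01 ± 0.73, adjusted p = 0.306). CLDN4 (0.39 ± 0.17), CLDN1 (0.40 ± 0.23) and DSP (0.19 ± 0.13) did not pass. The marker sums of SUM159 given above with JQ1 moved here too, from 7017 to 1733 for fibroblast and adipocyte markers (of which 1509.9 was FABP4) and from 1549 to 406.3 for blood and endothelial markers, and their part in the result was not tested.

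These 6 calls depend on single libraries. The EPCAM call was lost without the SUM159 DMSO or combination library, any MDAMB231 library or the HCC1806 JQ1 library (adjusted p 0.0578 to 0.159). It was also lost with a pseudocount of 0.1 or 10, with no filter on low values, with quantile normalization and without the variance trend (0.0521 to 0.0790). The CLDN7 call was lost without the SUM159 DMSO or combination library or the MDAMB231 combination library (0.0642 to 0.0991). PKP3 lost its call without the DMSO or combination library of SUM159 or MDAMB231 (0.0844 to 0.0906). OCLN lost it without the DMSO or combination library of SUM159 or HCC1806 or the MDAMB231 DMSO library (0.0533 to 0.102). TJP1 lost it without the SUM159 DMSO or combination library (0.0623 and 0.0699), and JUP without those of MDAMB231 (0.0699 and 0.0772).

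Adding GSK2801 to JQ1 changed none of the 10 genes past the threshold. The count at an unadjusted p under 0.05 was 0 of 10, against 1031 of all tested genes, of which 0 (0%) were called after adjustment. In MDAMB231 the combination was below JQ1 for EPCAM (84.03 against 172.6), CLDN7 (122.7 against 273) and PKP3 (138.1 against 274.8), each by about 1 on the log2 scale (-1.03, -1.15 and -0.99). In SUM159 these ratios were -0.08, -0.53 and -0.58, and in HCC1806 0.26, -0.02 and -0.06. The means over lines were -0.28 ± 0.41, -0.57 ± 0.47 and -0.54 ± 0.47. The departure from additivity, which asks whether both inhibitors together differ from the sum of their separate log2 differences, was called for 0 of the 10 and for 0 (0%) of all tested genes. At an unadjusted p under 0.05 these counts were 0 and 171. The estimates ranged from -0.49 ± 0.58 for EPCAM to 0.55 ± 1.03 for ESRP1, so departures of over 1 on the log2 scale lie within several of the intervals.

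Adding JQ1 to GSK2801 compares libraries that the JQ1 against DMSO comparison did not use, although the spread was estimated over all 12 libraries. JUP (1.30 ± 0.38, adjusted p = 0.0329) and TJP1 (0.39 ± 0.11, adjusted p = 0.0237) rose, and EPCAM (-1.46 ± 0.41, adjusted p = 0.0283) and PKP3 (-1.53 ± 0.47, adjusted p = 0.0372) fell. Of all tested genes 29.0% were called, with 11.8% higher and 17.2% lower. PKP3 was 1822 with GSK2801 and 291 with both in SUM159, 505.8 and 138.1 in MDAMB231, and 3681 and 3495 in HCC1806. JUP was 5534 and 8318, 254.1 and 1368, and 10915 and 20192 in the same order of lines. The JUP ratios of 0.59, 2.42 and 0.89 lay within 0.05 of those for JQ1 against DMSO, which were 0.64, 2.43 and 0.87. CLDN7 had a mean of -1.14 ± 0.47 and did not pass (adjusted p = 0.0982).

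Each of these calls was lost when certain libraries were left out. The EPCAM call was lost without the GSK2801 or combination library of SUM159 or MDAMB231 (adjusted p 0.0810 to 0.104), and with a pseudocount of 10 (0.0640). PKP3 lost its call without those libraries or the MDAMB231 JQ1 library (0.0553 to 0.138), and without the variance trend (0.0576). TJP1 lost it without the GSK2801 or combination library of SUM159 or HCC1806 (0.0505 to 0.0886). JUP lost it without those of MDAMB231 or HCC1806 (0.0540 to 0.129), and without the variance trend (0.0531).

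**Figure D4:**
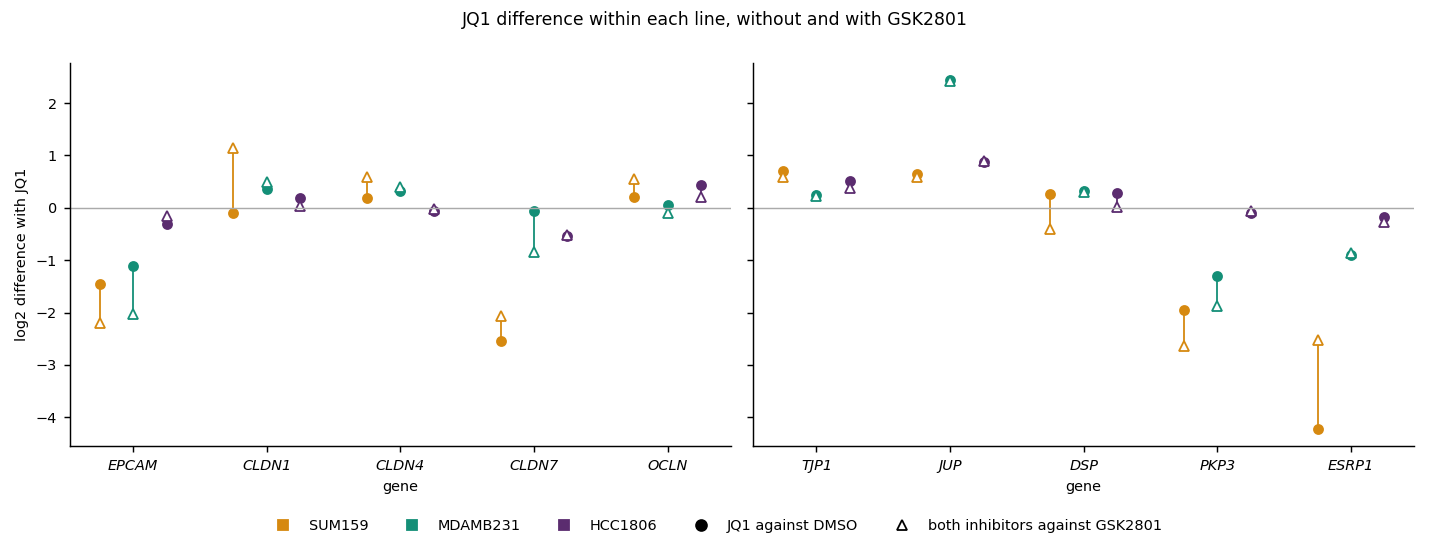
Log2 difference with JQ1 within each line (colour) for each of the 10 genes, as JQ1 against DMSO (filled circles) and as both inhibitors against GSK2801 (open triangles), joined by a line. The 2 values of JUP and TJP1 nearly coincide in each line. In HCC1806 those of PKP3 are near 0 (-0.09 and -0.07), and those of EPCAM are -0.31 and -0.15.

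Seen by library, 5 of the 10 genes separated completely with JQ1. TJP1 and JUP were higher in both libraries with JQ1 than in both without it in each of the 3 lines. EPCAM, PKP3 and ESRP1 were lower in this sense in each line. For EPCAM in SUM159 this order rests on 1 and 1 estimated reads against 4 and 9. For ESRP1 in MDAMB231 it rests on 3 and 6 against 8 and 10. Of all tested genes 32.8% separated so, 13.2% higher and 19.6% lower. CLDN7 separated downward in SUM159 and HCC1806 and overlapped in MDAMB231, where JQ1 alone gave 273 and GSK2801 alone 221.6. CLDN4 separated in opposite directions, upward in MDAMB231 (906.6 and 945 against 722.7 and 720.1) and downward in HCC1806 (3340 and 3329 against 3481 and 3408). In HCC1806 the log2 ratios with JQ1, without and with GSK2801, were small for CLDN4 (-0.06 and -0.03) and PKP3 (-0.09 and -0.07).

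The JQ1 response of 4 members differed between HCC1806 and the mean of the other lines. A fit that gave each line its own response, taken as the mean of its 2 values without and with GSK2801, called 25.1% of all tested genes in this comparison (14.5% higher and 10.6% lower). PKP3 changed by -0.08 in HCC1806 and by -1.94 on average in the others, a difference of 1.86 ± 0.23 (limma adjusted p = 0.00231). EPCAM changed by -0.23 and -1.70, a difference of 1.47 ± 0.32 (adjusted p = 0.0174). ESRP1 changed by -0.22 and -2.13, a difference of 1.91 ± 0.48 (adjusted p = 0.0264). By these values the 3 genes were lowered less in HCC1806, the line with most of each and with the highest JQ1 dose. ESRP1 was tested through HCC1806 alone, with 0 to 24 estimated reads in SUM159 and 3 to 10 in MDAMB231. EPCAM had 1 to 9 in SUM159, so the sizes of both differences rest on few reads. JUP rose by 0.88 in HCC1806 and by 1.52 on average in the others, a difference of -0.64 ± 0.08 (adjusted p = 0.00293). That average joins 0.61 in SUM159, below HCC1806, and 2.42 in MDAMB231. The residual of this fit is each line's departure from additivity, so its p-values do not measure the spread between cultures.

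Leaving out 1 library at a time ended these calls as follows. PKP3 was lost without any of the 4 HCC1806 libraries (adjusted p 0.0644 to 0.0709). EPCAM was lost without any HCC1806 library or the SUM159 GSK2801 or combination library (0.0575 to 0.167), and without the variance trend (0.0529). ESRP1 was lost without any HCC1806 or MDAMB231 library (0.0599 to 0.179), and with a pseudocount of 0.1 (0.133), no filter on low values (0.0518), quantile normalization (0.0704) or no variance trend (0.0613). JUP was lost without the HCC1806 GSK2801 or combination library (0.0503 and 0.0504).

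Between SUM159 and MDAMB231 the JQ1 response also differed for 4 members, where 29.2% of all tested genes were called (11.4% higher and 17.9% lower). JUP rose by 0.61 in SUM159 and by 2.42 in MDAMB231, a difference of -1.81 ± 0.10 (adjusted p = 3.3e-04), and this call held without any single library. CLDN7 changed by -2.30 and -0.45, a difference of -1.85 ± 0.32 (adjusted p = 0.00700). ESRP1 changed by -3.37 and -0.89, a difference of -2.48 ± 0.55 (adjusted p = 0.0158). TJP1 rose by 0.64 and 0.24, a difference of 0.40 ± 0.11 (adjusted p = 0.0266). CLDN7 and ESRP1 had few reads in SUM159, and with a pseudocount of 10 the CLDN7 difference was -0.65 (adjusted p = 0.119). The CLDN7 call was lost without the SUM159 DMSO or JQ1 library (0.0521 and 0.0535), and the TJP1 call without any SUM159 or MDAMB231 library (0.0680 to 0.124) or the variance trend (0.0866). ESRP1 lost its call without any MDAMB231 or HCC1806 library (0.0629 to 0.0834) and with a pseudocount of 0.1 (0.0739). For GSK2801, the response of 0 members differed between lines in either comparison, where 0% and 0.00703% of all tested genes were called.

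Some other junction genes passed with JQ1, in both directions, in each list a smaller share than the 22.6% called over all tested genes (9.52% higher and 13.1% lower). Of 25 other tight junction genes tested, 2 rose (CLDN9 and CXADR) and 2 fell (CLDN11 and CLDN12), with a median difference of 0.08 against -0.08 over all tested genes. CXADR and CLDN12 are named here after their values were seen. CLDN9 was low outside HCC1806, where it was 45.93 with DMSO, 330.28 with JQ1 and 528.85 with both. Its mean difference was 2.15 ± 0.40 with JQ1 (adjusted p = 0.00737) and 3.02 ± 0.40 with both. CXADR, the receptor for coxsackievirus and adenovirus found at tight junctions, rose by 1.01 ± 0.26 (adjusted p = 0.0248). CLDN11, the claudin of myelin and of Sertoli cells, had 9731.5 with DMSO and 3556.8 with JQ1 in HCC1806, and a mean of -1.37 ± 0.28 (adjusted p = 0.00984). It was tested through HCC1806 alone, and its values were only 8.2 and 4.25 in SUM159 and 15.82 and 3.65 in MDAMB231. Of 10 other desmosome genes 1 rose and 0 fell. This was PERP, a p53 target found in desmosomes, at 0.60 ± 0.14 (adjusted p = 0.0181).

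Of 11 adherens junction and nectin genes 2 rose with JQ1 and 0 fell. AFDN, which links nectins to actin, rose by 0.68 ± 0.17 (adjusted p = 0.0206), and CTNNA1, the alpha-catenin gene, by 0.36 ± 0.10 (adjusted p = 0.0311). Of 20 epithelial regulators 1 rose and 0 fell. KLF5, a transcription factor of basal epithelium, was 2009.8 with DMSO and 3826.2 with JQ1 in SUM159, 2064.8 and 3617.3 in MDAMB231, and 2985.4 and 4916.6 in HCC1806. Its log2 ratios of 0.93, 0.81 and 0.72 were close to each other, and the mean was 0.82 ± 0.09 (adjusted p = 0.00145). Of the 6 repressors 0 passed with JQ1, and 1, ZEB2, had an unadjusted p under 0.05 (-1.03 ± 0.45, adjusted p = 0.128). With both inhibitors, where 34.8% of all tested genes were called, CLDN9, CXADR, ILDR1 and MAGI1 rose among the other tight junction genes, and those that fell included CLDN11 and CLDN12. ILDR1 and CLDN11 were tested through HCC1806 alone, and ILDR1 was at most 0.67 in MDAMB231. The same desmosome gene and the same regulator passed as with JQ1, and no repressor did. Of the adherens junction genes AFDN, CTNNA1 and CTNND1 rose and 0 fell. CXADR, MAGI1, CLDN11, CLDN12 and CTNND1 are named here after their values were seen.

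Genes whose pattern was most like the members' mean were found by Pearson correlation, as a description. The mean was taken over the 10 members on the log2 scale, each centred on its own mean. Over the 12 libraries the closest non-members included ERBB3, a receptor of the EGFR family (0.998), the glycosyltransferase gene B4GALNT3 (0.996), the G protein subunit gene GNA13 (0.994) and SLC16A13 (0.994). These coefficients mostly reflect the 3 lines, since the 4 libraries of a line share its level. Among the members, EPCAM (0.981) and CLDN7 (0.980) were closest to the mean, and TJP1 (-0.302) and JUP (0.366) were farthest. After each gene's line mean was subtracted, the closest were TFCP2L1, a factor related to grainyhead (0.973), FIBIN (0.967), PCDHGA5 (0.966), BHLHE41 (0.966) and TTC39B (0.966). In that measure ESRP1 (0.917), CLDN7 (0.841), PKP3 (0.813) and EPCAM (0.777) went with the mean, and DSP was at 0.034. TJP1 (-0.714), CLDN1 (-0.482), CLDN4 (-0.450), OCLN (-0.318) and JUP (-0.280) ran against it. The members were not scaled, so those with the widest spread within a line weigh most. In SUM159 the standard deviation was 2.10 for ESRP1, 1.41 for CLDN7 and 1.09 for EPCAM, all at few reads. PKP3 in SUM159 (1.35) and JUP in MDAMB231 (1.41) also varied widely, at more reads. The members are part of the mean they are compared with.

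On hg38, the build of the deposited values, GENCODE v29 places CLDN7 at chr17:7259903-7263983 and JUP at chr17:41754604-41786931, both on the minus strand. EPCAM lies at chr2:47345158-47387601, PKP3 at chr11:392614-404908, DSP at chr6:7541575-7586717 and OCLN at chr5:69492292-69558104 on the plus strand, and TJP1 at chr15:29699367-29968865 on the minus strand. The end of CLDN7 overlaps ELP5 on the opposite strand, whose values were 532 to 1399, above CLDN7 in every library of SUM159 and MDAMB231. The labels name a stranded and another library kit, so it is not known whether reads of the overlap were told apart by strand. CLDN7 also overlaps in part a protein-coding gene, AC003688.1, on its own strand, and OCLN overlaps an antisense gene and has an annotated pseudogene copy, so reads of either could be shared. Any overlaps of the remaining members are with small RNA genes, pseudogenes or intronic and antisense genes in this annotation.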

How the data were processed

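Polyadenylated RNA of 12 libraries was quantified, 1 per cell line and treatment. Per the submitters' processing notes, STAR 2.4, Salmon 0.60 and hg38 were used; their roles, the annotation and the scaling are not given in the sources used here. The authors deposited 1 signal value per gene. In each library the 75th percentile of values above 0 was 1663.93, and 67.1% to 69.2% of values were whole multiples of 1 step (tolerance 0.02), which gives 24193692 to 46802137 estimated reads and 15766 to 16797 entries above 0. Of 28539 entries, 27 whose symbols had become dates (0.168% to 0.218% of signal) were left out.

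The logarithm log2(value + 1) was fitted by limma 3.58.1 (R 4.3.3) with a variance trend and the cell line as a block (6 residual and 3.02 prior degrees of freedom). The block pairs libraries of 1 line, whose correlations were 0.935 to 0.993, against 0.685 to 0.810 between lines. Responses per line came from a further fit (3 and 4.48). Since the files hold scaled values, the count model allowed for in the plan was not used. P-values were adjusted over 14232 genes (Benjamini-Hochberg) and called under 0.05, and the fits were tested on simulated data. The labels give 1 library per line and treatment, so p-values of treatment comparisons rest on how responses differed between lines, and none measures the spread between cultures. All 10 members were named; of each other list, the 2 passing genes that changed most with JQ1 and with both, and further genes named after their values were seen. The members and the lists were chosen with earlier results of these data known. Promoter windows are from RefSeq (GRCh38.p14) and gene positions from GENCODE v29. A few genes of the lists are not reported here.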

Additional observations from a re-analysis of the deposited data

Results flagged for a closer look

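The JQ1 response of 6 members differed between lines by a test of the difference itself (limma, per-line responses, adjusted p under 0.05). Of all tested genes 25.1% were called in the comparison of HCC1806 with the other lines and 29.2% in that of SUM159 with MDAMB231. The response of HCC1806 minus the mean of SUM159 and MDAMB231 was 1.47 for EPCAM, 1.86 for PKP3 and 1.91 for ESRP1 on the log2 scale. By these values the genes were lowered less in HCC1806 (-0.23, -0.08 and -0.22) than in the others (-1.70, -1.94 and -2.13). For JUP, which rose, HCC1806 minus that mean was -0.64, with SUM159 below HCC1806 and MDAMB231 above it. SUM159 minus MDAMB231 gave -1.85 for CLDN7, 0.40 for TJP1, -1.81 for JUP and -2.48 for ESRP1. The values of EPCAM, CLDN7 and ESRP1 in SUM159, and of ESRP1 in MDAMB231, rest on few reads. The JUP call between SUM159 and MDAMB231 held without any single library, and each of the other calls was lost without at least 1. The JQ1 dose differed between the lines, and the medium differed for HCC1806, so line, dose and medium cannot be told apart in the first comparison, nor line and dose in the second.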

How the results depend on the processing

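Line numbers are 1 for SUM159, 2 for MDAMB231 and 3 for HCC1806. The counts of members called for levels between lines, GSK2801 alone, the combination against JQ1 and additivity moved by less than 1.5 times under every alternative run. For JQ1 against DMSO (2 called) the count was 1 without the variance trend and 0 with only the libraries compared. For both inhibitors against DMSO (6) it was 0 with only the libraries compared. For both against GSK2801 (4) it was 2 without the variance trend and 0 with only the libraries compared. For the JQ1 response of HCC1806 against the other lines (4) it was 2 without the variance trend. With no replicate block, so that libraries of 1 line are not paired, 0 members were called for JQ1 against DMSO, 0 for both against DMSO and 0 for both against GSK2801. Leaving out a line or a single library gave 0 to 2 for JQ1, 0 to 7 for both against DMSO, 0 to 5 for both against GSK2801, 0 to 6 for the response of HCC1806 and 2 to 4 for that of SUM159 against MDAMB231. Fits on fewer libraries have fewer residual degrees of freedom; the other causes were not tested.

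Of 2760 recomputed member values, 2580 kept their call, 160 lost it and 19 gained one. The EPCAM difference in JQ1 response between SUM159 and MDAMB231 reversed, from -0.25 to 0.94 (adjusted p = 0.0380), with a pseudocount of 10, where the few reads of SUM159 weigh little. Among those that kept their call, 106 values that were never called changed sign. Quantile normalization shifted the median of all genes by -0.11 for HCC1806 against SUM159 and -0.14 against MDAMB231. Depth limits EPCAM, CLDN7 and ESRP1 in SUM159 and ESRP1 in MDAMB231.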
